A study of Mus musculus with 9 samples.

Results

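The transcription factor NRF2 (gene symbol Nfe2l2), its inhibitor Keap1 and 7 genes that NRF2 is known to switch on were followed in mouse liver: Nqo1, Gclc, Gclm, Hmox1, Txnrd1, Srxn1 and Slc7a11. The 9 genes were picked by name for their place in this pathway, with earlier results of these data known. Each was found as 1 row among the 55401 gene rows of the count table. Left-lobe liver RNA was read with the Lexogen QuantSeq 3′ method, which counts the ends of polyadenylated transcripts, in 9 libraries that make 3 groups of 3. STAM mice were males given 200 µg streptozotocin, a toxin of insulin-producing cells, under the skin at 2 days of age, and they ate a high-fat diet from 4 weeks of age for 4 weeks. STAM + Atglistatin mice had the same toxin, age and diet, and their high-fat feed held Atglistatin, which inhibits adipose triglyceride lipase. Chow mice had neither the toxin nor the inhibitor and ate a chow diet, so toxin and diet differ together between chow and STAM. The strain is not given in the sources used here, nor are the dose of Atglistatin and any pooling of animals. The labels do not describe each library's animal, so p-values measure the spread between these samples.

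Under resting conditions KEAP1 binds NRF2 and feeds it to a ubiquitin ligase built on CUL3, which keeps NRF2 protein low. Electrophiles and oxidants modify KEAP1, NRF2 builds up, pairs with a small MAF protein and binds antioxidant response elements next to genes for glutathione synthesis, thioredoxin recycling, quinone reduction and heme breakdown. NRF2 is thus set largely at the level of protein, which a transcript count does not measure.

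The response element is the DNA that ties these genes together. Its core, searched on both strands as TGACNNNGC or TGAGNNNGC in the 250 bases before each start site in RefSeq promoters of GRCm38.p6, was found in 5 of the 9 genes, and 7 of the 9 are in that promoter table. Gclc and Hmox1 are not in it. One form or the other lay in 23% of all 32851 windows of that length. Counted by gene, as for the members, it lay in 25.7% of 27025 genes. A match is thus a description and not a known binding site. The matching stretches are shown for the genes whose counts are described next, 5′ to 3′ on the gene's strand, with the core in capitals. A core on the other strand appears as its reverse complement.
Nfe2l2, chr2:75704875-75704913, minus strand: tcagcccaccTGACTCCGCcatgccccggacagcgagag
Gclm, chr3:122245403-122245451, plus strand: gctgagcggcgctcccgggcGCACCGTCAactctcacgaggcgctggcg
Txnrd1, chr10:82859094-82859142, plus strand: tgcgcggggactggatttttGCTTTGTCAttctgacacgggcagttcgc
Srxn1, distal match, chr2:152105346-152105394, plus strand: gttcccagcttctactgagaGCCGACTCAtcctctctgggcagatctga
Srxn1, proximal match, chr2:152105459-152105507, plus strand: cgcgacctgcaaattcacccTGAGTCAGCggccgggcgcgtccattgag
Slc7a11, chr3:50443682-50443730, minus strand: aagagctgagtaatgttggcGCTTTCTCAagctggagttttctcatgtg
Srxn1 was the gene with 2 matches, at 158 and 45 bases before its start. These letters did not occur in the windows of Nqo1 and Keap1.

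The libraries held 7380365 to 9886129 counts in genes, and 12660 genes, all 9 members among them, had enough counts to be tested. Levels are counts per 1000000 counts of a library (CPM), with library sizes scaled by TMM. Differences are on the log2 scale, ± SE, and p-values come from the quasi-likelihood test of edgeR, adjusted by Benjamini and Hochberg's method over the 12660 genes. Hepatocyte markers were present in every library, and the summed CPM of 6 of them ran from 90542 to 101622 in chow livers, 47663 to 55501 in STAM livers and 70841 to 71748 in treated livers. The share of counts from mitochondrial genes was 7.98 ± 0.738% in chow livers, 11.2 ± 0.303% in STAM livers and 9.04 ± 0.600% in treated livers (SD, n = 3 each). The part of both in the results was not tested. In bulk tissue, fewer cells of a type and less RNA per cell cannot be told apart. The library chow replicate 7 was far from both of its fellows for several members, and comparisons with chow that it moved are given with and without it for the members and the lists that changed.

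Atglistatin was accompanied by higher Nfe2l2, Nqo1 and Gclc. In STAM + Atglistatin against STAM, these 3 of the 9 genes rose and none fell at an adjusted p under 0.05, in a comparison where 1.04% of all tested genes were called higher and 1.79% were called in either direction. The values of 5 of the 9 genes, Txnrd1 and Srxn1 besides those 3, lay higher in all 3 treated libraries than in all 3 STAM libraries, a separation that 8.56% of tested genes showed. The median log2 fold change of the 9 genes was 0.45, and that of all tested genes was -0.000925. Since the 9 genes were chosen with earlier results of these data known, their counts and medians are not independent evidence of a direction. Against chow, the treated group had 2 of the 9 genes higher, Nfe2l2 and Nqo1, and none lower, where 2.1% of tested genes were called higher and 4.08% either way. Those 2 genes lay higher in all treated than in all chow libraries, as did 9.58% of tested genes. The median against chow was 0.18 for the 9 genes and -0.00420 for all. DESeq2 and limma-voom called the same numbers, 3 against STAM and 2 against chow. The calls depended on single libraries. Against STAM, 0 of the 9 were left without STAM replicate 2 or without treated replicate 5. Against chow, 1 to 4 were called on leaving out a library. In STAM against chow, 0 of the 9 were called, with 3.94% of all tested genes called, and Gclc was the 1 gene at an unadjusted p under 0.05. In that comparison DESeq2 and limma-voom each called 1 member, Gclc, lower in STAM. Each group enters 2 of the 3 comparisons, so the comparisons are not independent.

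**Figure D1:**
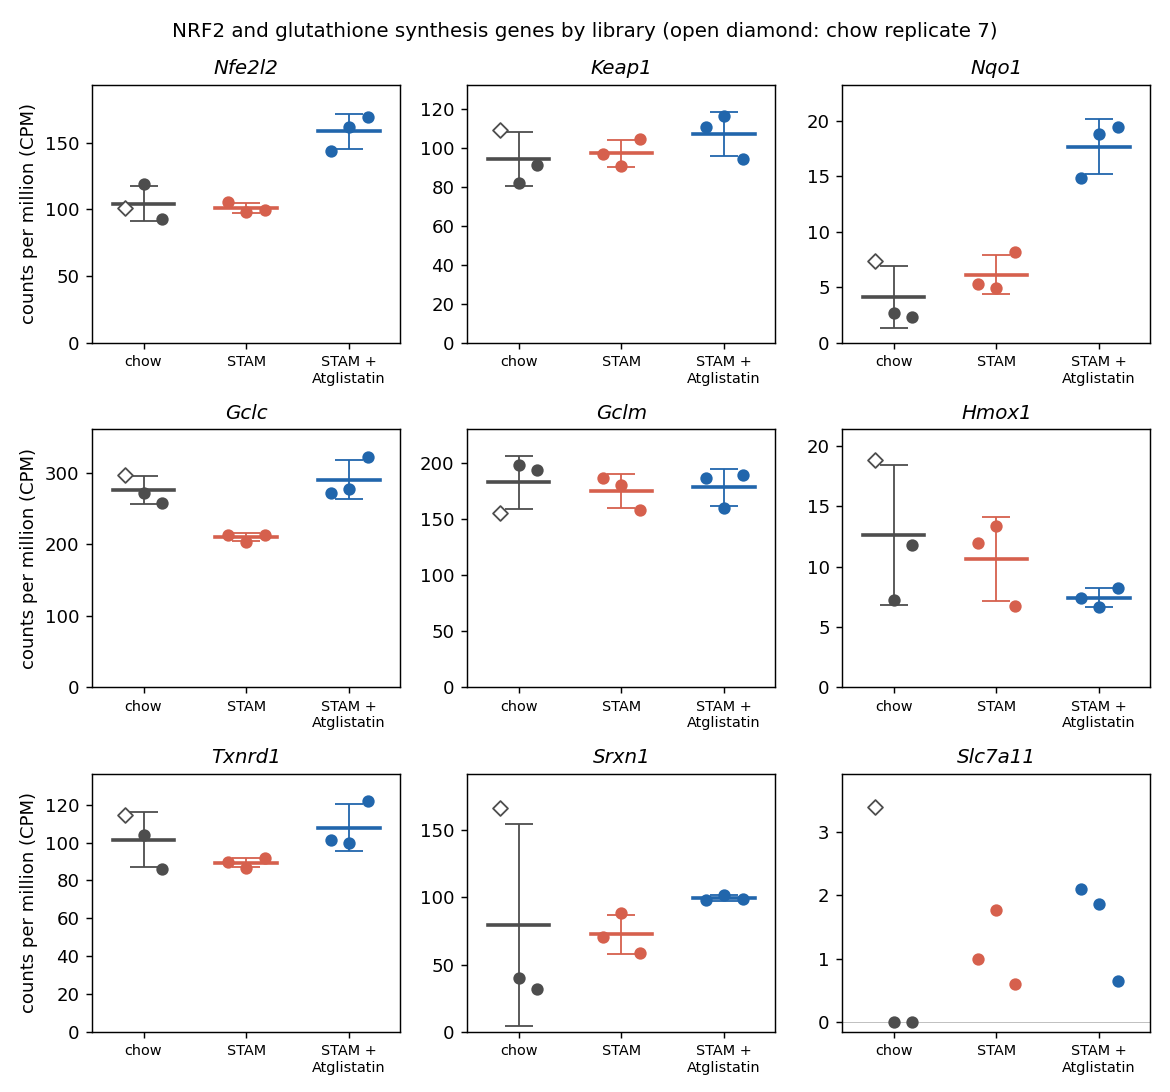
Levels in CPM (y axis, linear, starting at 0 apart from a small margin for Slc7a11) of the 9 genes in each of the 9 libraries, by group (x axis). Points are libraries, wide bars group means and thin bars 1 SD (n = 3), not drawn for Slc7a11, and the open diamond is chow replicate 7. The treated points of Nfe2l2 and Nqo1 lie above all points of both other groups, and the diamond is the highest of 9 points for Hmox1, Srxn1 and Slc7a11.

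Nfe2l2 encodes NRF2 itself and lies on chromosome 2 (75675513 to 75704641, minus strand, GRCm38). Its level was 101, 119 and 92.8 CPM in chow replicates 7, 8 and 9, and 105, 98.0 and 99.8 CPM in STAM replicates 1, 2 and 3. In STAM + Atglistatin replicates 4, 5 and 6 it was 144, 162 and 170 CPM. All 3 treated libraries stood above the 6 others, while chow and STAM covered the same range. The treated mean was 159 ± 13.1 CPM (SD, n = 3), against 101 ± 3.76 in STAM and 104 ± 13.4 in chow. That was 1.57-fold higher than STAM (log2 0.65 ± 0.13, edgeR adjusted p = 0.00900) and 1.52-fold higher than chow (0.60 ± 0.13, adjusted p = 0.0104). STAM and chow differed by -0.05 ± 0.13 on the log2 scale (adjusted p = 0.927). The call against STAM was lost without STAM replicate 2 (adjusted p = 0.0710) or STAM + Atglistatin replicate 5 (adjusted p = 0.0528). The call against chow was lost without chow replicate 9 (0.52, adjusted p = 0.0754).

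Keap1, the inhibitor and electrophile sensor, lies on chromosome 9 (21229730 to 21239361, minus strand). It stood at 110, 82.3 and 91.3 CPM in chow, 96.8, 90.8 and 105 CPM in STAM and 111, 116 and 94.4 CPM with Atglistatin. The 3 groups overlapped, and no comparison passed. The treated group differed from STAM by 0.14 ± 0.14 on the log2 scale (adjusted p = 0.831), with a 95% interval from -0.15 to 0.43. A Keap1 increase as large as the 0.65 of Nfe2l2 lay outside that interval.

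Nqo1, a quinone reductase and a widely used readout of NRF2, lies on chromosome 8 (107388225 to 107403206, minus strand). It was a low gene in these livers, with 72, 22 and 16 counts in chow replicates 7, 8 and 9. STAM replicates held 48, 42 and 68 counts, and treated replicates 148, 182 and 180. On the CPM scale, chow stood at 7.40, 2.65 and 2.36, STAM at 5.30, 4.95 and 8.16, and STAM + Atglistatin at 14.8, 18.8 and 19.4. The treated libraries again lay above all others, and chow replicate 7 lay within the STAM range while the other 2 chow libraries lay under it. The treated mean of 17.7 ± 2.5 CPM (SD, n = 3) was 2.88-fold that of STAM in the fit (log2 1.53 ± 0.36, edgeR adjusted p = 0.0349). It was 4.17-fold higher than chow (2.06 ± 0.37, adjusted p = 0.00274). STAM itself was 1.45-fold higher than chow, which did not pass (0.53 ± 0.38, adjusted p = 0.592). The call against STAM was lost on leaving out any 1 of the 6 libraries compared except STAM replicate 3 (adjusted p 0.0760 to 0.202), and the call against chow was kept in each alternative run. Without chow replicate 7, which is in neither of those groups, the value against STAM was nearly the same (1.53 ± 0.28, adjusted p = 0.00171).

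Glutathione is made in a first, rate-limiting step by glutamate-cysteine ligase, whose catalytic subunit is Gclc and whose modifier subunit is Gclm. Gclc lies on chromosome 9 (77754535 to 77794485, plus strand). It stood at 297, 272 and 258 CPM in chow, 213, 203 and 213 CPM in STAM and 271, 278 and 322 CPM with Atglistatin. The STAM libraries were the 3 lowest of the 9, and the treated libraries overlapped the chow range. The treated mean of 290 ± 27.6 CPM (SD, n = 3) was 1.38-fold that of STAM, 210 ± 5.79 CPM (log2 0.47 ± 0.12, edgeR adjusted p = 0.0473). Against chow, 276 ± 19.7 CPM, the treated group differed by 0.07 (adjusted p = 0.852). The value of STAM against chow was -0.39 ± 0.12 and missed the threshold (edgeR adjusted p = 0.0728). DESeq2 and limma-voom put it past the threshold (adjusted p = 0.0190 and 0.0328), and chow and STAM did not overlap, which 10.1% of tested genes showed in that direction. The Gclc call between treated and STAM livers was near the threshold: it was lost with DESeq2 size factors (adjusted p = 0.0509), with library totals (adjusted p = 0.0729) and on leaving out any 1 of the 6 libraries (0.0840 to 0.234).

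Gclm, on chromosome 3 (122245557 to 122270732, plus strand), did not pass in any comparison. Its level was 155, 198 and 194 CPM in chow, 187, 180 and 158 CPM in STAM and 186, 159 and 189 CPM in treated livers. The groups overlapped throughout. The treated group differed from STAM by 0.03 ± 0.13, with a 95% interval from -0.25 to 0.30, which does not hold the 0.47 measured for Gclc. Whether the 2 subunits differed in their response was not tested. Gss, the enzyme of the second step, stood at 61.4 ± 4.79 CPM with Atglistatin and 47.1 ± 3.89 in STAM (SD, n = 3). The 3 treated values lay above the 3 STAM values, but the difference of 0.38 ± 0.17 did not pass (adjusted p = 0.426), and Gss overlaps Acss2 on the other strand, so reads of the 2 cannot be told apart if counting ignored strand.

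Slc7a11 is the cystine-importing subunit of the transporter xCT and lies on chromosome 3 (49892526 to 50443614, minus strand). It was scarcely detected, with 33, 0 and 0 counts in chow replicates 7, 8 and 9. STAM libraries held 9, 15 and 5 counts, and treated libraries 21, 18 and 6. As CPM, chow replicate 7 had 3.39, the STAM libraries 0.994, 1.77 and 0.600 and the treated libraries 2.10, 1.86 and 0.648. Chow replicate 7 thus held the highest value of the 9 libraries and the other 2 chow libraries the lowest. No comparison of the 9 libraries passed. A total of 0 counts in chow replicates 8 and 9 was taken to allow up to 3 counts over both, or 0.199 CPM. Against that limit the pooled level was 5.64-fold higher in STAM (29 counts) and 7.83-fold higher in STAM + Atglistatin (45 counts). These ratios allow for counting error in chow replicates 8 and 9 only. They take the 29 and 45 counts as exact and leave chow replicate 7 out. Slc3a2, its partner subunit, stood at 47.0 ± 9.71 CPM in treated livers and 35.4 ± 8.65 in STAM (SD, n = 3), and the difference of 0.41 ± 0.24 did not pass (adjusted p = 0.629).

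Txnrd1, the cytosolic thioredoxin reductase, lies on chromosome 10 (82833951 to 82897712, plus strand), and the match printed above belongs to 1 of its 3 start sites in the promoter table. It stood at 114, 104 and 86.0 CPM in chow, 89.9, 86.7 and 91.8 CPM in STAM and 101, 99.9 and 122 CPM with Atglistatin. The treated libraries lay above the STAM libraries and within or just above the chow range. The difference of 0.27 ± 0.14 from STAM did not pass (adjusted p = 0.550), nor did the other comparisons.

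Srxn1, sulfiredoxin, restores over-oxidised peroxiredoxins and lies on chromosome 2 (152105516 to 152111376, plus strand). Its counts in chow replicates 7, 8 and 9 were 1617, 335 and 215, or 166, 40.3 and 31.7 CPM. STAM libraries stood at 70.3, 88.1 and 58.7 CPM, and treated libraries at 98.0, 102 and 98.9 CPM. Chow therefore held both the highest library and the 2 lowest, and the treated libraries, at 99.6 ± 2.04 CPM (SD, n = 3), lay above all 3 STAM libraries. With chow replicate 7 in the fit no comparison passed: STAM against chow was -0.14 ± 0.39 (adjusted p = 0.928), treated against chow 0.32 ± 0.39 (adjusted p = 0.796) and treated against STAM 0.46 ± 0.39 (adjusted p = 0.794). Without that library, singled out after its values were seen, STAM was 2.00-fold higher than chow (log2 1.0 ± 0.18, edgeR adjusted p = 0.000780). The treated group was then 2.75-fold higher than chow (1.46 ± 0.18, adjusted p = 8.65e-06). The value against STAM was 0.46 ± 0.15 in that fit and still did not pass (adjusted p = 0.134).

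Hmox1, the inducible heme oxygenase, which macrophages of the liver also make, lies on chromosome 8 (75093621 to 75100589, plus strand). It stood at 18.8, 7.22 and 11.8 CPM in chow, 11.9, 13.3 and 6.72 CPM in STAM and 7.41, 6.62 and 8.20 CPM with Atglistatin. Unlike Nfe2l2, Nqo1 and Gclc, its fitted values against both other groups were negative, -0.52 ± 0.34 against STAM (adjusted p = 0.677) and -0.77 ± 0.33 against chow (adjusted p = 0.278). Neither passed, and the groups overlapped. Chow replicate 7 held the highest value of the 9 libraries, and without it the value against chow was -0.35 ± 0.34 (adjusted p = 0.679). STAM against chow was -0.25 ± 0.33 with it and 0.17 ± 0.34 without it (adjusted p = 0.823 and 0.879). The summed level of 10 Kupffer cell markers, all with counts, ranged from 428 to 581 CPM in chow, 498 to 593 in STAM and 470 to 646 in treated livers, and that of 9 recruited macrophage markers from 97.6 to 179, 99.6 to 134 and 125 to 161. None of these markers passed in any comparison.

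**Figure D2:**
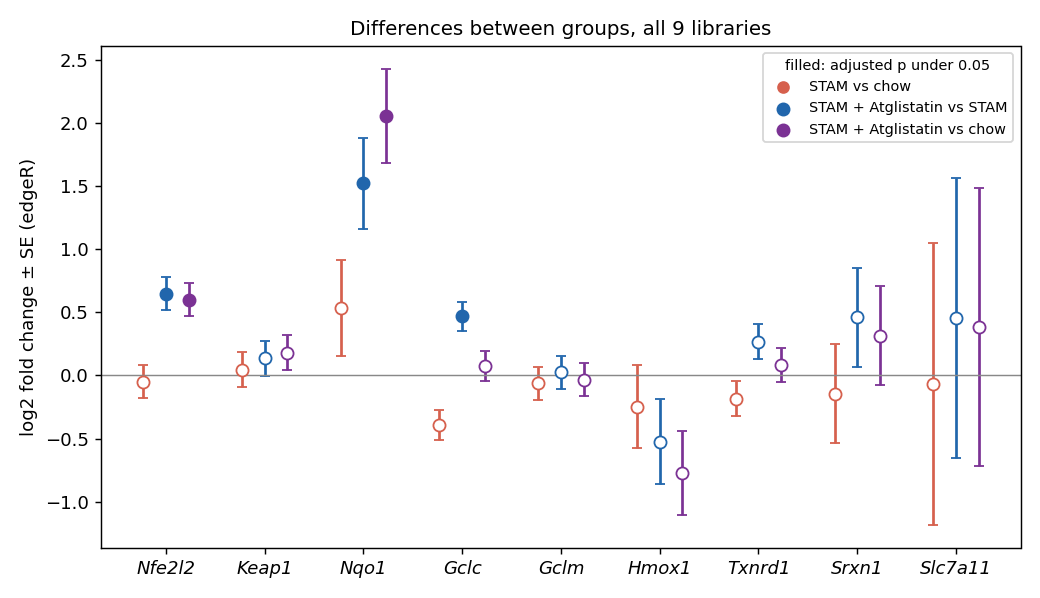
Log2 fold changes (y axis, points, with bars of 1 SE from edgeR) of the 9 genes (x axis) in the 3 comparisons; filled points passed at an adjusted p under 0.05. Nfe2l2, Nqo1 and Gclc are filled for treated against STAM, Nfe2l2 and Nqo1 for treated against chow, and no gene is filled for STAM against chow.

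The library chow replicate 7 carried more of several NRF2 targets than the other 2 chow libraries. Its CPM was 4.61 times their mean for Srxn1, 2.96 times for Nqo1 and 1.98 times for Hmox1, and Slc7a11 was detected in it alone among the chow libraries. With 0.5 CPM added to each value, 3 of the 9 genes, Nqo1, Srxn1 and Slc7a11, reached a ratio of 2, as did 6.15% of all tested genes. Nfe2l2 (ratio 0.955) and Gclm (0.792) were not raised in it, and Keap1, Gclc and Txnrd1 had ratios of 1.26, 1.12 and 1.20. With the same 0.5 CPM added, no other library had a member at that ratio. Without it, Slc7a11 in STAM replicate 2 also reached it, at 2.22 times the mean of the other 2 STAM libraries.

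Other genes of the same kind were high in that library too. A ratio of 2 was reached by 8 of 26 other detoxification targets of NRF2 (Gsta1, Gsta2, Gstm3, Mgst3, Cbr3, Ptgr1, Abcc4 and Osgin1) and by 7 of 13 targets of ATF4, the stress factor that also drives Slc7a11 (Asns, Trib3, Ddit3, Psat1, Mthfd2, Chac1 and Nupr1). It was reached by 0 of 15 NRF2 regulators, 0 of 15 thioredoxin and peroxiredoxin genes and 0 of 6 NADPH-supplying enzymes. The other lists had 1 of 14 glutathione genes (Chac1), 0 of 11 cysteine and methionine genes, 0 of 8 heme and iron genes and 0 of 8 superoxide and peroxide enzymes. Of all tested genes 6.15% reached it, so a count of 0 or 1 in lists this short is near that share. Markers of other cells also stood apart there: 6 proliferation markers summed to 90.9 CPM, against 11.2 and 20.1 in the other chow libraries and 19 to 49.6 in the other groups. Likewise 6 stellate cell markers summed to 695 CPM against 433 and 446, 9 recruited macrophage markers to 179 against 97.6 and 125, and 5 cholangiocyte markers to 67.9 against 42.8 and 44.7. Spp1 is in both the macrophage and the cholangiocyte list, so those sums are not separate. The sum of 5 erythroid markers was 998 CPM against 782 and 689. Endothelial markers (6, 268.5 CPM against 268.8 and 291.5) did not stand apart, and Kupffer cell markers (10, 581 against 428 and 530) lay within the range of the other groups. All markers of these lists had counts, and their part in the member values was not tested.

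Leaving chow replicate 7 out changed the comparisons with chow most. That library was singled out for its high Nqo1, Srxn1 and Slc7a11. An upward shift of these genes against the remaining chow libraries follows from that choice and is not separate evidence. In STAM against chow, 2 of the 9 genes then rose, where 2.68% of 13078 tested genes were called higher: Srxn1 and Nqo1, the latter 2.43-fold (log2 1.28 ± 0.36, edgeR adjusted p = 0.0389) in place of 1.45-fold (0.53 ± 0.38, adjusted p = 0.592) with all libraries. In treated livers against chow, 4 rose, where 2.88% were called higher: Nqo1, Srxn1, Nfe2l2 and Slc7a11. Nqo1 was then 7.0-fold higher (2.81 ± 0.36, edgeR adjusted p = 1.91e-05), Nfe2l2 kept nearly its value (0.58, adjusted p = 0.0155) and Slc7a11 passed (adjusted p = 0.0389). The level of Slc7a11 is given above against a limit for chow. The comparison of treated with STAM livers, which holds no chow library, kept the same 3 calls. Their adjusted p was 0.00331 for Nfe2l2, 0.00171 for Nqo1 and 0.0186 for Gclc, where 1.41% of tested genes were called higher. The value of Nqo1 was 1.527 with and 1.525 without chow replicate 7, while its SE went from 0.361 to 0.278. That library had entered the fit shared by all groups. The treated and STAM libraries were the same in both fits, so the smaller adjusted p is no further evidence.

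**Figure D3:**
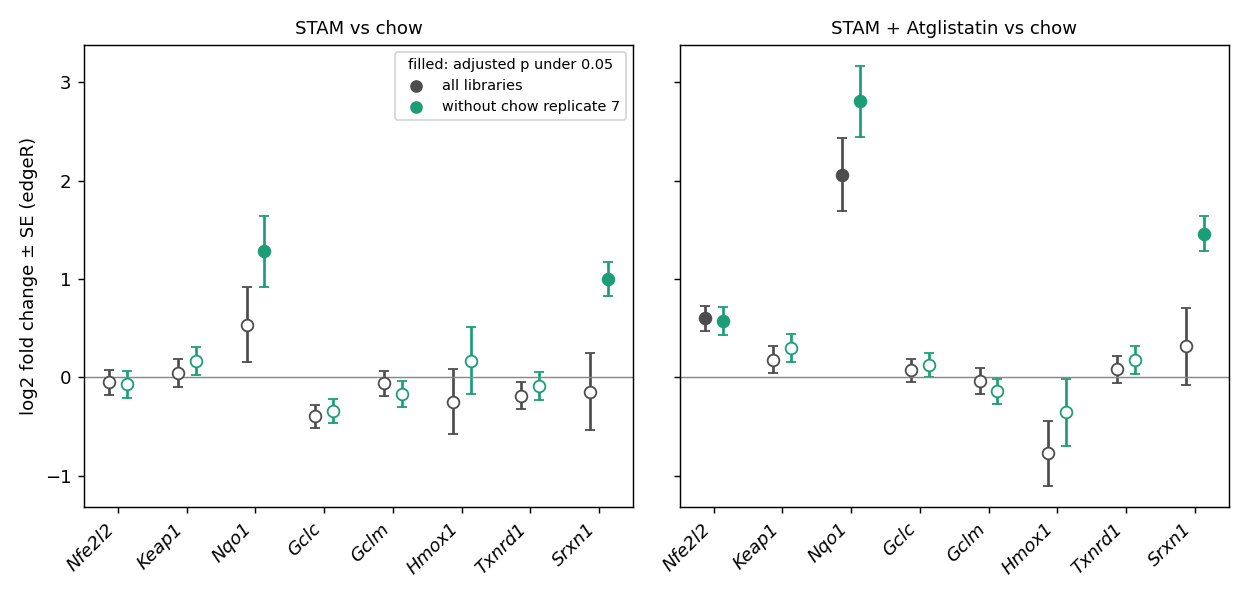
Log2 fold changes (y axis, points, with bars of 1 SE from edgeR) of 8 of the 9 genes (x axis) against chow, for STAM in the left panel and treated livers in the right, with all 9 libraries and without chow replicate 7; filled points passed at an adjusted p under 0.05. Srxn1 moves from -0.14 to 1.0 in the left panel and from 0.32 to 1.46 in the right, and Slc7a11 is omitted because it then has 0 counts in chow.

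The authors' deposited table, made from the same counts, held these genes too. The authors' deposited table listed adjusted p-values under 0.05 for 3 of the 9 in treated against STAM livers: Nfe2l2 (log2 fold change 0.62, adjusted p = 0.000124), Nqo1 (1.09, adjusted p = 0.00439) and Gclc (0.45, adjusted p = 0.00331). For treated livers against chow the authors' deposited table listed 2, Nfe2l2 (adjusted p = 0.000363) and Nqo1 (adjusted p = 1.31e-05). For chow against STAM the authors' deposited table listed 1, Gclc, at 0.38 higher in chow (adjusted p = 0.0184).

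Of 15 tested regulators and partners of NRF2, 0 passed in either comparison with STAM by edgeR, DESeq2 or limma-voom. At an unadjusted p under 0.05 there were 0 for treated against STAM (median log2 fold change 0.01) and 1, lower, for STAM against chow. In treated livers against chow 1 fell: Bach2, a relative of the NRF2 antagonist Bach1, by 1.09 ± 0.25 on the log2 scale (edgeR adjusted p = 0.0159, lost without chow replicate 8, at 0.106, or without treated replicate 4 or 6, at 0.0799 and 0.0509). Between treated and STAM livers Bach1, which competes with NRF2 at response elements, differed by -0.24, Mafg, an NRF2 partner, by 0.15, Cul3, the scaffold of the KEAP1 ligase, by 0.04 and Sqstm1, which sequesters KEAP1, by 0.12. None of these 4 passed, and Mafg overlaps Sirt7 on the same strand.

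Of 14 other genes of glutathione synthesis, recycling and breakdown, 0 passed between treated and STAM livers by edgeR, DESeq2 or limma-voom, and 1, Gss, had an unadjusted p under 0.05. Gsr, which reduces oxidised glutathione, differed by 0.11 and Gpx1, which uses glutathione to reduce peroxides, by -0.10. Oplah, which returns 5-oxoproline to glutamate, was 77.3 ± 6.87 CPM in chow, 114 ± 3.83 in STAM and 118 ± 21.3 in treated livers (SD, n = 3). It was higher than chow in both groups (0.57 ± 0.14, edgeR adjusted p = 0.0274, and 0.61 ± 0.14, adjusted p = 0.0163). Oplah overlaps Exosc4 and Smpd5 on the other strand, so reads of these genes cannot be told apart if counting ignored strand. The first call was lost without chow replicate 9 or without any 1 STAM library (adjusted p 0.0790 to 0.122), and the second without chow replicate 9 or treated replicate 5 (0.0892 and 0.121). Without chow replicate 7, Chac1, which breaks down glutathione, also rose in STAM against chow, and Glo1, a glyoxalase, fell in treated livers against chow. Chac1 was among the genes high in chow replicate 7, so its rise follows from leaving that library out and is not separate evidence. The other chow libraries held 0.361 and 0.443 CPM of it, the level of 3 counts in each.

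Among 11 genes that supply or use cysteine and methionine, Csad, which turns cysteine sulfinate towards taurine, fell in STAM against chow by 1.63 ± 0.24 on the log2 scale (edgeR adjusted p = 0.000412). With Atglistatin it was 1.11 ± 0.24 above STAM (adjusted p = 0.0183), but its 3 treated values of 189, 422 and 505 CPM overlapped the STAM values of 141, 175 and 199 CPM. That call was lost with DESeq2 (adjusted p = 0.0759) and without STAM replicate 1 or 2 or treated replicate 5 or 6 (0.0887 to 0.157). Bhmt, which remethylates homocysteine, fell with Atglistatin by 0.92 ± 0.13 against STAM (adjusted p = 0.000309), from 1799 ± 119 to 953 ± 119 CPM (SD, n = 3). Mat1a, which makes S-adenosylmethionine, was 0.75 ± 0.12 higher in STAM than in chow (adjusted p = 0.000866), and Cdo1, which oxidises cysteine, fell there by 0.52 ± 0.13 (adjusted p = 0.0329). The Cdo1 call was lost with the 2 groups alone (adjusted p = 0.0742) and without chow replicate 8 or 9 or any 1 STAM library (0.0616 to 0.172). In treated livers against chow, Mat1a was higher and Bhmt, Gnmt and Cbs were lower. On leaving out single libraries the call was lost for Bhmt (chow replicate 8 or 9, treated replicate 4 or 5, adjusted p 0.0537 to 0.205), for Gnmt (chow replicate 8 or 9, treated replicate 5 or 6, 0.0765 to 0.130) and for Cbs (any chow library, treated replicate 5 or 6, 0.0551 to 0.118). The Bhmt and Cbs calls were also lost with library totals (adjusted p = 0.0543 and 0.0918) and with the 2 groups alone (0.0831 and 0.109).

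Of 15 thioredoxin and peroxiredoxin genes other than Txnrd1 and Srxn1, 1 passed by edgeR in the 3 comparisons, Prdx4, which fell in STAM against chow by 0.54 ± 0.13 (edgeR adjusted p = 0.0187). Leaving out a chow library (8 or 9) or a STAM library (1 or 2) ended that call (adjusted p 0.0522 to 0.113). Between treated and STAM livers 2 had an unadjusted p under 0.05, and neither passed by DESeq2 or limma-voom. Of 8 superoxide and peroxide enzymes 0 passed by edgeR in the 3 comparisons, with 1, 0 and 1 at an unadjusted p under 0.05 in STAM against chow, treated against STAM and treated against chow. DESeq2 called 1 of them higher in treated livers than in chow. Of 8 genes for heme breakdown and iron storage, Blvrb, a biliverdin reductase downstream of heme oxygenase, rose. It stood at 135 ± 10.7 CPM in chow, 170 ± 28.6 in STAM and 262 ± 17.1 with Atglistatin (SD, n = 3). It was 0.62 ± 0.13 above STAM (adjusted p = 0.0184) and 0.96 ± 0.13 above chow (adjusted p = 0.000262), and the first call was lost without STAM replicate 1 or 2 or treated replicate 5 or 6 (0.0766 to 0.163). Slc40a1, the iron exporter, fell in STAM against chow by 0.63 ± 0.12 (adjusted p = 0.0049).

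Of 26 other detoxification genes that NRF2 is known to induce, 8 rose in treated against STAM livers and 0 fell, with a median of 0.72 beside -0.000925 for all genes. In that comparison 1.04% of all tested genes were called higher. At an unadjusted p under 0.05, 15 were higher and 0 lower, and DESeq2 called 9 and limma-voom 12, each higher. The list was chosen with earlier results of these libraries known and is not independent evidence of its direction. Cbr1, a carbonyl reductase, stood at 115, 85.1 and 85.9 CPM in chow, 96.8, 106 and 118 CPM in STAM and 330, 309 and 258 CPM in treated livers. Its 3 treated values were far above the 6 others, 2.79-fold higher than STAM (1.48 ± 0.15, edgeR adjusted p = 7.42e-06) and 3.14-fold higher than chow (1.65 ± 0.15, adjusted p = 1.25e-06). Ephx1, the microsomal epoxide hydrolase, was 2.11-fold higher in treated livers than in chow (1.08 ± 0.16, adjusted p = 0.000317).

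Several glutathione S-transferases, which attach glutathione to electrophiles, followed another course. Gstm1 fell from 1857 ± 410 CPM in chow to 932 ± 120 in STAM (-1.0 ± 0.16, edgeR adjusted p = 0.000787) and stood at 2565 ± 432 with Atglistatin (SD, n = 3), 2.75-fold above STAM (1.46 ± 0.16, adjusted p = 2.32e-05). Gstm2 had the same order, at 99.4, 57.3 and 129 CPM in chow, STAM and treated livers, as group means. Gstm6 was lowest in STAM as well, but with Atglistatin it stayed 0.82 ± 0.16 below chow (adjusted p = 0.00450). Gstp1 fell in STAM against chow by 1.26 ± 0.31 (adjusted p = 0.0243) and was as low with Atglistatin, 7.57 ± 3.44 CPM beside 7.74 ± 2.16 (SD, n = 3). Gsta4 was 2.06-fold higher in treated than in STAM livers (1.04 ± 0.17, adjusted p = 0.00154). These genes have close copies, and how reads that fit several copies were counted is not given in the sources used here.

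**Figure D4:**
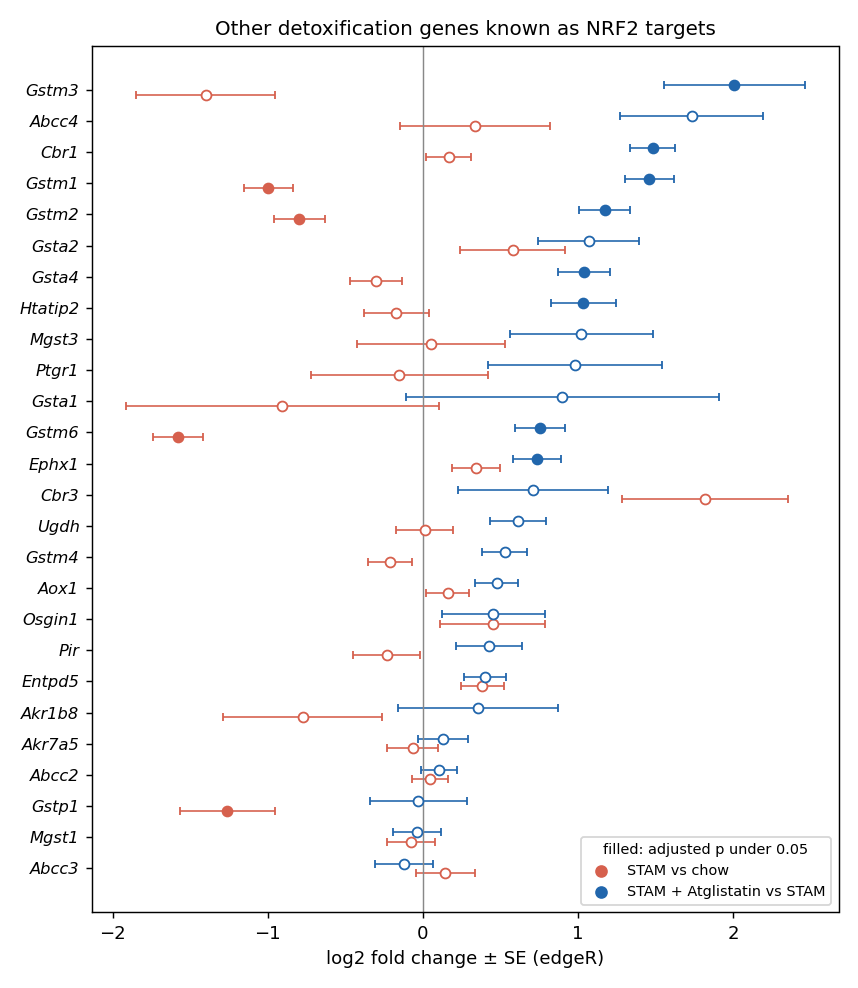
Log2 fold changes (x axis, points, with bars of 1 SE from edgeR) of the other detoxification genes that NRF2 is known to induce (y axis), for STAM against chow and treated against STAM; filled points passed at an adjusted p under 0.05. Of the 26 genes, 4 lie to the left of 0 with a filled point for STAM against chow and 8 to the right for treated against STAM.

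In STAM against chow edgeR called 4 of the 26 lower (Gstm6, Gstm1, Gstm2 and Gstp1) and none higher (median -0.07 beside -0.00134 for all genes). Of all 12660 tested genes, 252 were called lower and 247 higher there. DESeq2 also called 4 of the 26 lower and none higher, and limma-voom called 4 lower and 2 higher. The Gstm2 call was lost without STAM replicate 3 (adjusted p = 0.0527) and the Gstp1 call on leaving out chow library 8 or 9 or STAM library 1 or 2 (0.0681 to 0.137). In treated livers against chow 9 rose and 2 fell (median 0.62), where 266 of all 12660 tested genes were called higher and 250 lower. The count for treated against STAM was 4 without STAM replicate 1 or treated replicate 4 and 5 without STAM replicate 2 or treated replicate 5, while Cbr1, Gstm1, Gstm2 and Gsta4 kept their calls in each alternative run. Against chow the 11 calls became 6 without chow replicate 8 or treated replicate 4 and 7 without chow replicate 9. Without chow replicate 7, 5 rose (Entpd5, Cbr3, Gsta2, Osgin1 and Gsta1) and the same 4 fell in STAM against chow, and the list median changed sign, from -0.07 to 0.05. Cbr3, Gsta2, Osgin1 and Gsta1 were among the genes that were high in that library. Without that library, 14 rose and 2 fell in treated livers against chow (median 0.91), and 12 rose and 0 fell in treated against STAM. Of all tested genes, 2.68% were then called higher in STAM against chow, 2.88% in treated against chow and 1.41% in treated against STAM.

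NADPH powers both NQO1 and the reductases of glutathione and thioredoxin. Of 6 genes that supply it, 3 rose in treated against STAM livers and none fell (median 0.66). Of all tested genes, 1.04% were called higher in that comparison. The list of 6 was chosen with earlier results of these data known and is not independent evidence of its direction. Me1, malic enzyme, stood at 105, 165 and 181 CPM in chow, 75.3, 73.2 and 81.8 CPM in STAM and 159, 217 and 197 CPM in treated livers. It fell in STAM against chow by 0.97 ± 0.17 (edgeR adjusted p = 0.00256) and was 2.49-fold higher with Atglistatin than in STAM (1.31 ± 0.18, adjusted p = 0.000220). Tkt and Pgd, of the pentose phosphate pathway, were 1.56-fold and 1.60-fold higher with Atglistatin (adjusted p = 0.0130 and 0.0299). The count of 3 fell to 1, Me1, without any 1 of STAM replicates 1, 2 and 3. Tkt also missed the threshold without treated replicate 4 (adjusted p = 0.0741). Pgd also missed it without treated replicate 5 or 6 (adjusted p = 0.172 and 0.0916) and with library totals (adjusted p = 0.0511).

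Of 13 ATF4 targets, 0 passed by edgeR in either comparison with STAM. At an unadjusted p under 0.05, 2 were higher and 2 lower for STAM against chow, and 1 was lower for treated against STAM. DESeq2 called 1 higher in STAM than in chow and 0 for treated against STAM. By edgeR 1, Vldlr, was higher in treated livers than in chow (1.77 ± 0.47, edgeR adjusted p = 0.0425). The Vldlr call was lost with limma-voom, with the 2 groups alone and without chow replicate 8 or 9 or any 1 treated library (adjusted p 0.0595 to 0.164). The list median was -0.32 for STAM against chow, -0.54 for treated against chow and -0.11 for treated against STAM. In treated livers against chow 2 were higher and 4 lower at an unadjusted p under 0.05, and DESeq2 called 1 higher and 0 lower. Chow replicate 7 held 7 of the 13 at a ratio of 2 or more, and without it the medians were 0.17, -0.083 and -0.11. In that fit 2 were higher and 0 lower at an unadjusted p under 0.05 in treated livers against chow. In that fit 1 rose in STAM against chow, Chac1, and 1 fell in treated against STAM, Trib3. Chac1 was among the 7 genes high in chow replicate 7, so its rise is not separate evidence.

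Over the 9 libraries, the genes whose log2 CPM ran most nearly parallel to each called member were ranked by Pearson's r among 12651 genes, as a description, since the libraries share 3 groups. For Nfe2l2 they were Ski, Scyl2 and Dhrs7 (r = 0.98 each). For Nqo1 they were Slc22a27 (0.98), Gm45941 (0.97) and Cdkn1a (0.97). Cdkn1a, the cell cycle inhibitor p21, stood at 50.4, 2.89 and 6.34 CPM in chow replicates 7, 8 and 9, 24.2 ± 5.13 CPM in STAM (SD, n = 3) and 169, 153 and 140 CPM with Atglistatin, and so shared with Nqo1 the high value of chow replicate 7. For Gclc they were Tmem126b, Mrpl43 and Prkx (0.96 each), whose group means were also lowest in STAM.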

How the data were processed

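Groups were taken from sample titles and the design text, since the treatment label of chow and STAM libraries goes against both. Per the submitters' processing notes, reads were aligned with STAR to GRCm38. The counting tool is not given in the sources used here, nor are the annotation release, strand setting and handling of multiply mapping reads. The deposited values are raw counts per gene and the authors' log2 fold changes and p-values. The authors' mean scaled counts had no use here. The 7 ribosomal RNA rows (0.260 to 0.529% of counts) were left out.

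Counts were tested with edgeR 4.0.16 in R 4.3.3 (filterByExpr, TMM, 1 quasi-likelihood fit to all 9 libraries, threshold 0.05), with a common biological coefficient of variation of 0.236. Alternatives were DESeq2 size factors, library totals, no filter on low counts, DESeq2 1.42.0, limma-voom (limma 3.58.1) with sample weights, the 2 compared groups alone, and each library left out. A fit of treated against STAM without chow replicate 7, and the weight given to that library, were chosen after seeing the data. The fitting script was tested on simulated data.

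The members, gene lists and markers were chosen with earlier results of these data known. Named are all 9 members, up to 4 called genes per list and comparison by smallest p, 8 direct partners, and the 3 genes closest in pattern to each called member. Genes named for chow replicate 7 or for fits without it, and the library values of Csad, Cbr1, Me1 and Cdkn1a, were picked after their values were seen. Positions are from GENCODE M21, which held 55141 of the gene identifiers. Figures were drawn with matplotlib 3.10.9.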

Additional observations from a re-analysis of the deposited data

How the results depend on the processing

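No paired analysis was possible because the groups share no replicate number. Of the values for single genes under the alternatives, 33 changed sign. Among these was Srxn1 in STAM against chow without chow replicate 7, which also gained a call. Of the values that kept their sign, 820 kept their side of the threshold, 101 lost a call and 5 gained one. Any value without an adjusted p was counted as kept. The cause was not tested. Fewer libraries per fit are part of each setting that leaves one out.

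Members called in STAM against chow were 1 with DESeq2 and 1 with limma-voom, and 0 to 2 on leaving out a library, while 2.22 to 5.54% of all tested genes were called (4.49% with DESeq2, 5.76% with limma-voom). They were 0 to 3 in treated against STAM, with 0 left without STAM replicate 2 or treated replicate 5, while 1.0 to 2.54% of all genes were called, and 1.02 and 1.06% in those 2 fits. They were 1 to 4 in treated against chow, with 2.36 to 5.79% of all genes. Detoxification calls for STAM against chow were 7 without the count filter and 3 to 9 on leaving out a library, the 9 being 5 higher and 4 lower without chow replicate 7. They were 4 to 12 for treated against STAM and 6 to 16 for treated against chow. NADPH calls were 1 to 3 for treated against STAM, and 1 with library totals for treated against chow.

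Sign changes arose in values that had not passed. For STAM against chow, library totals gave 0.041 for Nfe2l2 and 0.038 for Gclm, and limma-voom gave 0.55 for Srxn1 and 2.99 for Slc7a11. Leaving out a library gave -0.13 to 0.058 for Nfe2l2, -0.045 to 0.17 for Keap1, -0.17 to 0.00871 for Gclm, -0.53 to 0.17 for Hmox1, -0.52 to 1.0 for Srxn1 and -0.63 to 6.31 for Slc7a11. For treated against STAM, Gclm was -0.0073 with limma-voom. Leaving out a library gave -0.043 to 0.10 for Gclm, -0.16 to 0.34 for Gsr, -0.19 to 0.041 for Gpx1 and -0.0074 to 0.083 for Cul3. For treated against chow, Gclm was 0.058 with library totals. Leaving out a library gave -0.0073 to 0.13 for Gclc, -0.14 to 0.040 for Gclm, -0.023 to 0.18 for Txnrd1, -0.057 to 1.46 for Srxn1 and -0.18 to 6.76 for Slc7a11. The 2 Slc7a11 values above 6 rest on 0 counts in chow and are no measure of size.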
